A study of Mus musculus with 16 samples.

Results

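Expression of 10 genes that report on signalling through the kinase ERK was followed in mouse keratinocytes with and without integrin α3: the phosphatase genes *Dusp4*, *Dusp5* and *Dusp6*, the inhibitor genes *Spry2*, *Spry4*, *Spred1* and *Spred2*, the transcription factor genes *Etv4* and *Etv5*, and *Phlda1*. They were chosen by symbol with earlier results of these data known, and 10 of 10 were found among the 14474 genes of the count table. The cells were immortalized mouse keratinocytes (MK) grown on collagen in low-calcium medium at 33°C. MKα3− cells lack the α3 subunit of the laminin-binding integrin α3β1. MKα3+ cells were made from them by reintroducing the human subunit, so the α3-null origin and the immortalization are common to all groups. The sources do not say whether MKα3+ is a single clone, so a difference between the lines cannot be told apart from other differences that arose between them. Each line received recombinant laminin-332 (LN332, the α3β1 ligand of the epidermal basement membrane) at 0.02 mg/mL or its vehicle of PBS with glycine and sodium azide for 16 to 24 h. Each of the 4 groups was sequenced in 4 replicates, and nothing in the labels says that replicates came from separate cultures on separate days, so p-values measure the spread between these libraries.

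Receptor tyrosine kinases and integrins pass signals through Ras, Raf and MEK to ERK, and active ERK switches on genes that act back on the cascade. Dual-specificity phosphatases (DUSPs) remove phosphates from ERK and related kinases, Sprouty and Spred proteins restrain the steps between receptor, Ras and Raf, and ETV4 and ETV5 are ETS-family transcription factors whose transcription follows ERK activity. In epidermis the pathway is known for its part in keratinocyte proliferation and migration. Transcript levels of these genes are often read as a record of pathway activity, although ERK phosphorylation itself was not measured in these libraries.

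The 3 phosphatases share a catalytic centre, and the coding bases around it are shown because these related enzymes gave results in different directions. The sequences are from GENCODE transcripts of the GRCm38.p6 assembly, 5′ to 3′, with the codon of the catalytic cysteine in capitals.
Dusp4: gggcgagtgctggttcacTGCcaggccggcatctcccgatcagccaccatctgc
Dusp5: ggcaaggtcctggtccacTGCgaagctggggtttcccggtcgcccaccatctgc
Dusp6: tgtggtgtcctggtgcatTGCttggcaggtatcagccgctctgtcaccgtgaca
The cysteine is codon 284 of *Dusp4*, codon 263 of *Dusp5* and codon 293 of *Dusp6*. Over these 54 bases *Dusp4* and *Dusp5* had 39 bases in common, *Dusp4* and *Dusp6* 33, and *Dusp5* and *Dusp6* 29. *Dusp4* lies on chromosome 8 (34807610 to 34819894, plus strand), *Dusp5* on chromosome 19 (53529145 to 53541809, plus strand) and *Dusp6* on chromosome 10 (99263231 to 99267489, plus strand).

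ETS factors, the family to which ETV4 and ETV5 belong, recognise the core GGAA. RefSeq promoter windows of GRCm38.p6 were at hand for 6 of the 10 genes (*Dusp5*, *Dusp6*, *Spry2*, *Spred1*, *Spred2* and *Etv5*). The 250 bases before the start site of *Dusp6* and of the downstream start of *Etv5* are shown because these 2 genes were called in opposite directions, with GGAA or its complement TTCC in capitals.
Dusp6, chr10:99262981-99263230, plus strand: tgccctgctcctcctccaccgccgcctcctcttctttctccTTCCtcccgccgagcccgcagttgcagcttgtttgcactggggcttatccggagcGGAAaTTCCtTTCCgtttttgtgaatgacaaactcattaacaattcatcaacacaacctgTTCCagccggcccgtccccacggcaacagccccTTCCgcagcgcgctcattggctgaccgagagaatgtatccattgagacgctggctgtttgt
Etv5, chr16:22438369-22438618, minus strand: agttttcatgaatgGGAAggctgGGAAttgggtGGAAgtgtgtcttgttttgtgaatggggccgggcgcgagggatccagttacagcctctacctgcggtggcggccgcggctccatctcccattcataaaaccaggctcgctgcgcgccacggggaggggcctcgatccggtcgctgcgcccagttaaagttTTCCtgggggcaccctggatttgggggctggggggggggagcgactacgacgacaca
The *Dusp6* window held the core 6 times and this *Etv5* window 4 times, against a median of 3 over all 32851 windows of the same length, of which 93.4% held it at least once on either strand. The other *Etv5* window, at the upstream start, held it 0 times. The windows of *Spred2*, *Spred1*, *Dusp5* and *Spry2*, genes not called between the lines, held it 7, 4, 3 and 3 times. The AP-1 word TGANTCA and the CRE word TGACGTCA, also searched on both strands, occurred in 0 of the 7 windows of these genes and in 6.75% and 1.55% of all windows. These matches describe letters and not bound sites.

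Total counts per library were between 21735708 and 29338370, which gave between 126 and 7908 counts per library for 9 of the 10 genes and between 7 and 32 for *Spry4*. Levels are given as CPM, the count of a gene scaled to a common library size, after TMM normalization (trimmed mean of M-values). Keratinocyte markers were present in every library, the keratins at high levels. The lowest values over the libraries were 2139 CPM for *Krt5*, 2905 for *Krt14*, 571 for *Itgb4*, 93.1 for *Itga6* and 30.4 for *Trp63*. The summed CPM of 4 fibroblast markers was between 11.4 and 39.4 and that of 5 endothelial markers between 4.04 and 9.74, and 1 of 5 melanocyte markers was in the table. The summed CPM of 4 leukocyte markers was between 60.3 and 124 in MKα3− and between 91.2 and 337 in MKα3+ libraries. Most of its range was *Lyz2* (between 3.61 and 237 CPM), *Cd3e* was not in the table and *Ptprc* was between 0.425 and 3.81 CPM. The part of these markers in the differences between lines was not tested. *Itga3*, the targeted gene, had between 4530 and 8830 counts in every library and did not tell the lines apart in vehicle (259 ± 42.4 CPM without and 277 ± 46.8 CPM with α3, SD, n = 4). Since human α3 was reintroduced and reads were aligned to the mouse genome, this count does not check the labels.

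The 10 genes covered a wide range of expression. Per kilobase of exon, *Phlda1* was the most abundant in each of the 4 groups, followed by *Dusp6* and *Dusp5*, and *Spred1*, *Etv5* and *Spry4* were the 3 lowest. The order of *Etv4*, *Spry2*, *Dusp4* and *Spred2* between them differed among the groups. In 16 of 16 libraries *Phlda1* exceeded *Dusp6* per kilobase, *Dusp6* exceeded *Dusp5*, *Spred2* exceeded *Spred1*, *Spred1* exceeded *Etv5* and *Etv5* exceeded *Spry4*. *Dusp5* exceeded *Etv4* in 14 and *Etv4* exceeded *Spry2* in 12 libraries. *Dusp4* was below both *Spry2* and *Spred2* per kilobase in 8 of 8 MKα3− libraries and above both in 8 of 8 MKα3+ libraries. It ranked 7 of the 10 genes in both MKα3− groups, 5 in vehicle-treated and 4 in LN332-treated MKα3+ cells. In vehicle-treated MKα3− cells *Phlda1* was at 82.4 ± 11.5 CPM per kilobase and *Spry4* at 0.128 ± 0.0566 CPM per kilobase (SD, n = 4).

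**Figure D1:**
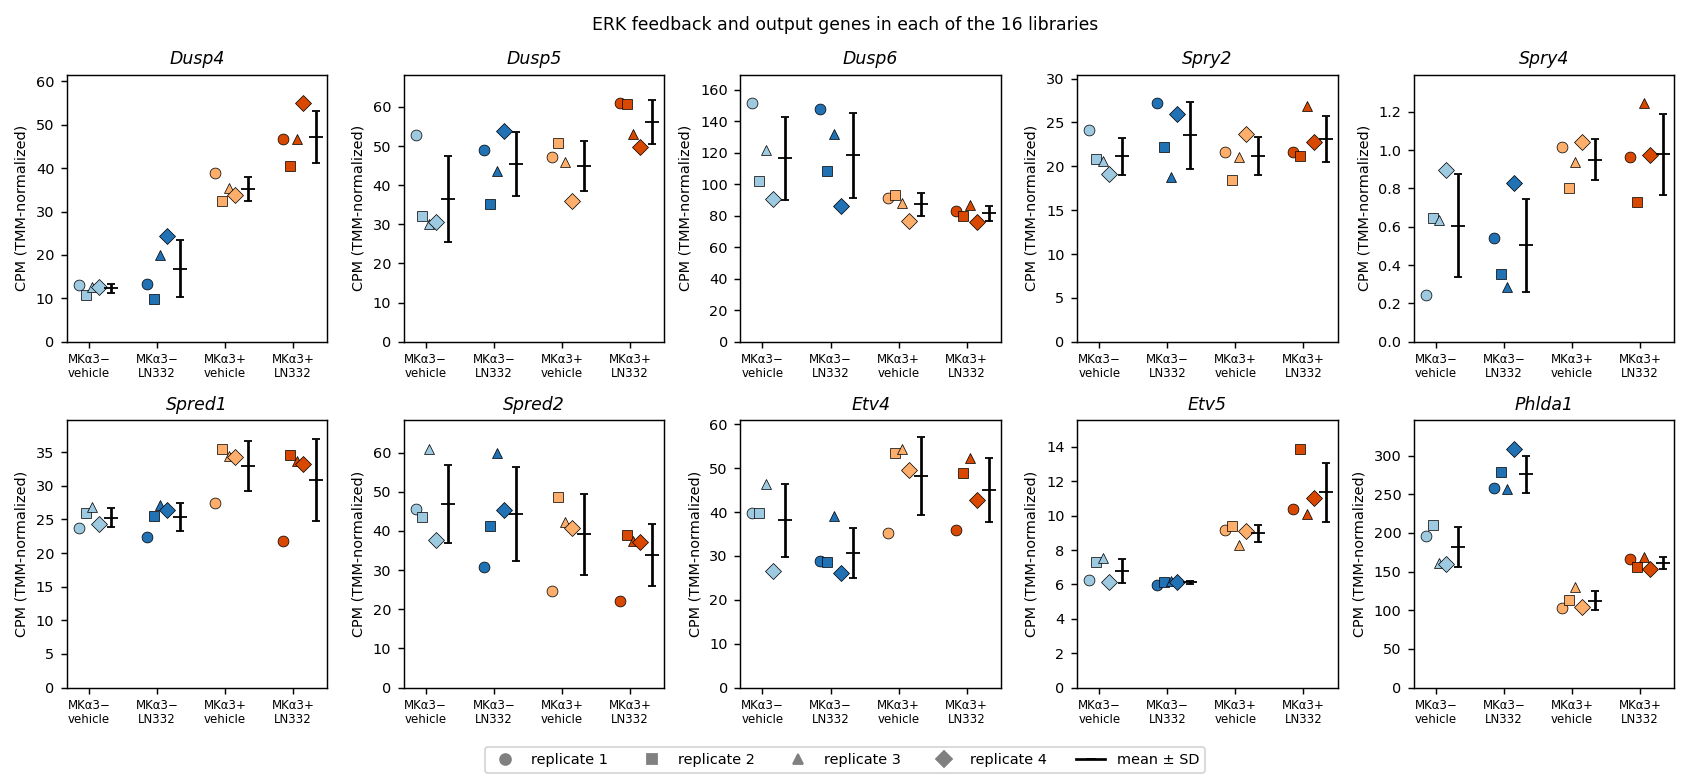
TMM-normalized CPM (y axis, from 0, a scale of its own for each gene) of the 10 genes in MKα3− and MKα3+ cells with vehicle or LN332. Each symbol is a library, its shape gives the replicate number, and the bar beside each group is the mean ± SD of 4 libraries. *Dusp4* sits between 32.5 and 55.0 CPM in MKα3+ libraries and between 9.82 and 24.3 CPM in MKα3− libraries, and *Phlda1* is lower in MKα3+ than in MKα3− libraries of the same treatment.

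The first comparison asked how these genes differed between the lines with and without α3 in vehicle. A gene was called when its adjusted p-value from limma-voom was under 0.05 and its absolute log2 fold change over 0.5. Of the 10 genes 2 were called, *Dusp4* higher and *Phlda1* lower in MKα3+ cells, against 18.5% of all 14474 genes (10.9% higher and 7.56% lower), so the count was near the background. The median log2 fold change of the 10 genes was 0.34, and that of all genes was 0.01. With LN332 present in both lines, 6 of the 10 were called against 20.6% of all genes (11.7% higher and 8.92% lower). *Dusp4*, *Spry4*, *Etv4* and *Etv5* were higher and *Dusp6* and *Phlda1* lower, with a median of 0.29 over the 10 genes and 0.01 over all genes. Whether the difference between lines changed with LN332 was tested as an interaction, which was called for 0 of the 10 genes and 0 of all genes in limma-voom. At an unadjusted p under 0.05 it held 1 of the 10, *Etv5*, and 164 of all genes (1.13%), and edgeR and DESeq2 also called 0 of the 10 and 0 of all genes.

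*Dusp4*, whose product is a nuclear phosphatase of ERK, p38 and JNK, differed most between the lines. In vehicle its level was 13.1, 10.9, 12.6 and 12.6 CPM in replicates 1 to 4 of MKα3− cells and 39.0, 32.5, 35.5 and 33.7 CPM in MKα3+ cells. With LN332 it was 13.3, 9.82, 20.0 and 24.3 CPM in the MKα3− line and 46.8, 40.5, 46.7 and 55.0 CPM in MKα3+ cells. Every MKα3+ library was above every MKα3− library. The log2 fold change between lines was 1.52 (SE 0.19) in vehicle, a 2.86-fold difference, with an adjusted p of 1.43e-05 from limma-voom. In LN332 it was 1.59 (SE 0.19), a 3.02-fold difference, with an adjusted p of 5.37e-06 from limma-voom. Both calls held in 16 of 16 fits that left out a library. The LN332-treated MKα3− libraries were the widest group of this gene, with replicates 1, 3 and 4 above and replicate 2 below the 4 vehicle-treated libraries.

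*Dusp6*, whose product is a cytoplasmic phosphatase selective for ERK, went the other way. In vehicle it was at 151, 102, 121 and 90.8 CPM in MKα3− cells and at 91.3, 92.9, 87.9 and 76.5 CPM in MKα3+ cells. With LN332 it was at 147, 108, 132 and 85.9 CPM in the MKα3− line and at 82.8, 80.0, 86.9 and 76.1 CPM in MKα3+ cells. The groups overlapped at replicate 4 of MKα3− cells in both treatments, and within each replicate number the MKα3+ library was the lower in 4 of 4 pairs. In vehicle the difference of −0.39 (log2, SE 0.16, limma-voom adjusted p = 0.0713) was not called. In LN332 it was −0.51 (SE 0.16, adjusted p = 0.0188 from limma-voom), just past the minimum fold change. This call was lost without replicate 1 or 3 of LN332-treated MKα3− cells (−0.40 and −0.46) or replicate 4 of LN332-treated MKα3+ cells (−0.49), and with replicate 1 of all groups left out (−0.40).

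*Dusp5*, which encodes a nuclear phosphatase specific for ERK, was not called in either treatment. Its level ran from 30.1 to 52.8 CPM in vehicle-treated MKα3− cells, from 35.9 to 50.7 CPM in vehicle-treated MKα3+ cells, from 35.1 to 54.0 CPM in LN332-treated MKα3− cells and from 49.9 to 61.0 CPM in LN332-treated MKα3+ cells. The log2 fold change between lines was 0.33 (95% interval −0.03 to 0.69) in vehicle and 0.32 (−0.03 to 0.68) in LN332. Replicate 1 of vehicle-treated MKα3− cells, at 52.8 CPM, was above the other 3 at 30.1 to 32.2 CPM, and without it the vehicle difference was 0.52 with an adjusted p of 0.0135 from limma-voom, which passed the call rule. An antisense transcript that is not in the table, AC137853.2, overlaps 22.1% of the exon length of *Dusp5*, and how the counting treated strand is not given in the sources used here, so its count is uncertain.

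The balance of *Dusp6* and *Dusp4* transcripts differed between the lines in every library, a comparison chosen after the values were seen and given without a test. The ratio of *Dusp6* to *Dusp4* counts per kilobase of exon was 8.25 ± 1.57 in vehicle-treated MKα3− cells (SD, n = 4, between 6.28 and 10.1) and 7.06 ± 3.22 in LN332-treated MKα3− cells (between 3.09 and 9.69). It was 2.18 ± 0.23 in vehicle-treated MKα3+ cells (between 1.99 and 2.50) and 1.53 ± 0.22 in LN332-treated MKα3+ cells (between 1.21 and 1.73). With the exon lengths used, *Dusp6* was thus the more abundant per kilobase in every group, by the smallest margin in LN332-treated MKα3+ cells.

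**Figure D2:**
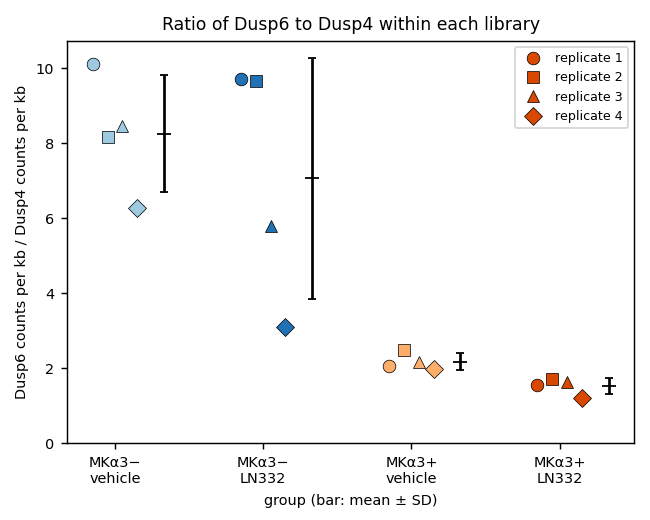
Ratio of *Dusp6* to *Dusp4* counts per kilobase of exon (y axis, from 0) in each library of the 4 groups (x axis), with symbol shape for the replicate number and the bar for the mean ± SD of 4 libraries. The 8 MKα3+ libraries sit between 1.21 and 2.50 and the 8 MKα3− libraries between 3.09 and 10.1, lowest there in replicate 4 with LN332.

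Among the inhibitors, the Sprouty genes sat far apart. *Spry2*, which encodes a membrane-associated antagonist of receptor tyrosine kinase signalling, ran from 18.4 to 27.2 CPM over all 16 libraries. Its log2 fold change between lines was 0.00 (95% interval −0.26 to 0.27) in vehicle and −0.01 (−0.27 to 0.25) in LN332, and its sign changed with the scaling. *Spry4*, from the same family, was at 0.246, 0.644, 0.638 and 0.898 CPM in vehicle-treated and 0.543, 0.353, 0.287 and 0.831 CPM in LN332-treated MKα3− cells. In MKα3+ cells the values were 1.02, 0.802, 0.940 and 1.04 CPM with vehicle and 0.964, 0.731, 1.25 and 0.974 CPM with LN332. Replicate 4 of MKα3− cells overlapped the MKα3+ range in both treatments. The difference between lines was 0.77 (SE 0.37, adjusted p = 0.132) in vehicle and 1.07 (SE 0.39, adjusted p = 0.0441) in LN332, both on the log2 scale from limma-voom. The latter call rests on 8 to 17 counts per library in MKα3− and 18 to 32 in MKα3+ cells. It was kept in 4 of 16 fits that each left out 1 library, namely without replicate 1 or 4 of vehicle-treated or replicate 4 of LN332-treated MKα3− cells or replicate 2 of LN332-treated MKα3+ cells, and was lost in edgeR (adjusted p = 0.0600) and DESeq2 (adjusted p = 0.0522).

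The Spred genes encode membrane proteins that bind neurofibromin and hold back Ras activation. *Spred1* was between 23.8 and 26.8 CPM in vehicle-treated MKα3− and between 27.4 and 35.5 CPM in vehicle-treated MKα3+ cells, without overlap. Its difference of 0.38 (log2, SE 0.13, limma-voom adjusted p = 0.0418) was under the minimum for a call. With LN332 it ran from 22.4 to 27.2 CPM in the MKα3− line and from 21.7 to 34.6 CPM in MKα3+ cells, where replicate 1 was the low library, and the difference was 0.26 (SE 0.14, adjusted p = 0.152 from limma-voom). With replicate 1 of all groups left out, the LN332 difference was 0.36 (adjusted p = 0.0025 from limma-voom), still under the minimum. *Spred2* had log2 fold changes of −0.29 (95% interval −0.77 to 0.20) in vehicle and −0.38 (−0.88 to 0.12) in LN332. It ran from 22.1 to 61.0 CPM over all libraries.

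The ETS factor genes were called in LN332. *Etv5* was at 6.25, 7.29, 7.51 and 6.15 CPM in vehicle-treated MKα3− cells and at 9.17, 9.38, 8.27 and 9.10 CPM in vehicle-treated MKα3+ cells. With LN332 it was at 5.98, 6.14, 6.17 and 6.16 CPM in the MKα3− line and at 10.4, 13.9, 10.1 and 11.1 CPM in MKα3+ cells. Every MKα3+ library was above every MKα3− library. The difference between lines was 0.41 (SE 0.13, adjusted p = 0.0225) in vehicle, under the minimum for a call, and 0.88 (SE 0.13, adjusted p = 5.55e-05) in LN332, from limma-voom on the log2 scale. The interaction was 0.47 (SE 0.18, unadjusted p = 0.0173, adjusted p = 1.0 over all genes in limma-voom), so a change of the difference with LN332 was not detected after adjustment.

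*Etv4* overlapped between the lines in both treatments. In vehicle it was at 39.7, 39.7, 46.5 and 26.5 CPM in the MKα3− line and at 35.2, 53.5, 54.4 and 49.7 CPM in MKα3+ cells. With LN332 it was at 28.9, 28.7, 39.1 and 26.1 CPM in the MKα3− line and at 36.0, 49.0, 52.4 and 42.7 CPM in MKα3+ cells. Replicate 1 was the lowest MKα3+ library in both treatments. The difference between lines was 0.35 (log2, SE 0.18, adjusted p = 0.161) in vehicle and 0.55 (SE 0.18, adjusted p = 0.0300) in LN332 from limma-voom. The LN332 call was lost without any 1 of replicates 1, 2 and 4 of MKα3− cells or replicates 2, 3 and 4 of MKα3+ cells, with adjusted p-values up to 0.0971. With replicate 1 of all groups left out, *Etv4* was called in vehicle as well (0.52, adjusted p = 0.0405 from limma-voom).

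*Phlda1*, a pleckstrin homology-like domain gene induced by growth factors, was called for both variables. It was at 196, 210, 161 and 160 CPM in vehicle-treated MKα3− cells and at 103, 113, 130 and 104 CPM in vehicle-treated MKα3+ cells. With LN332 it was at 259, 279, 256 and 308 CPM in the MKα3− line and at 166, 156, 169 and 153 CPM in MKα3+ cells. The groups did not overlap in any of the 4 pairwise comparisons. Between lines it differed by −0.69 on the log2 scale (SE 0.10, adjusted p = 8.16e-05) in vehicle and −0.77 (SE 0.11, adjusted p = 2.94e-05) in LN332 from limma-voom, and both calls held in 16 of 16 fits that left out a library. LN332-treated MKα3+ cells reached 161 ± 7.87 CPM and vehicle-treated MKα3− cells 182 ± 25.3 CPM (SD, n = 4), a pair that differs in both variables. A noncoding transcript on the opposite strand that is not in the table, Gm28592, overlaps 33.0% of the exon length of *Phlda1*, so its count is uncertain.

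**Figure D3:**
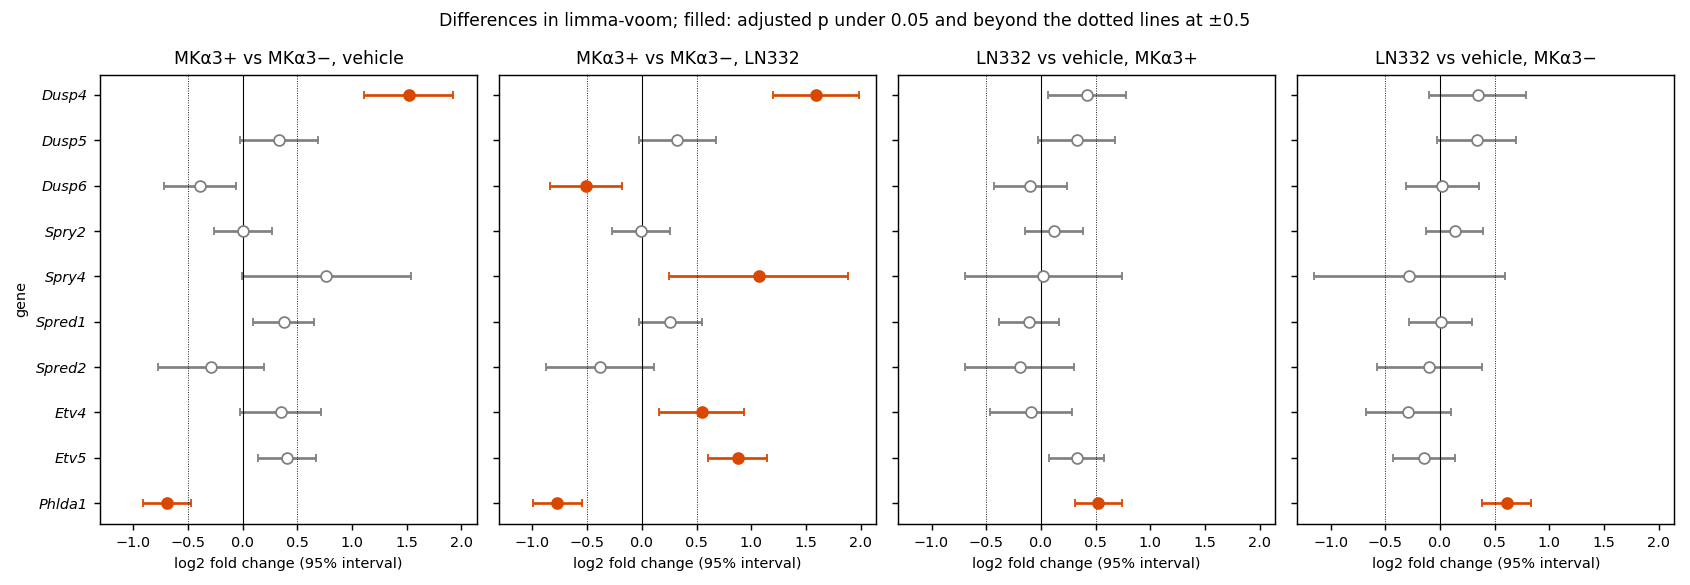
Log2 fold changes (x axis) of the 10 genes (y axis) from limma-voom in the 4 pairwise comparisons, with 95% intervals, 4 libraries in each group. Filled points have an adjusted p under 0.05 and lie beyond the dotted lines at ±0.5; 2 are filled for MKα3+ against MKα3− in vehicle, 6 in LN332 and 1, *Phlda1*, for LN332 in each line.

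The next comparison asked how the genes responded to LN332. In MKα3+ cells 1 of the 10 genes was called, *Phlda1*, against 0.187% of all genes, and in MKα3− cells the same 1 of 10 against 0.304%. The LN332 difference of *Phlda1* was 0.53 (SE 0.10, adjusted p = 0.0466) in MKα3+ cells, a 1.44-fold rise, and 0.61 (SE 0.11, adjusted p = 0.0275) in MKα3− cells, a 1.53-fold rise, from limma-voom. Blocking on the replicate number raised the calls over all genes from 27 to 218 and from 44 to 259, and gave *Phlda1* adjusted p-values of 0.0126 and 0.0060 in limma-voom. The interaction was −0.08 (95% interval −0.40 to 0.23), so a difference in response between the lines was not detected. In fits without the replicate block, the call in MKα3+ cells was fragile. It was kept in 3 of 16 fits that each left out 1 library, namely without replicate 1 or 4 of LN332-treated or replicate 1 of vehicle-treated MKα3− cells (adjusted p between 0.0316 and 0.182 over the 16 fits from limma-voom). It was lost in edgeR (adjusted p = 0.0716), with scaling by library size (0.45), with sample quality weights (0.49) and with replicate 1 of all groups left out (0.47). The call in MKα3− cells was kept in 12 of 16 such fits and lost without replicate 2 or 4 of LN332-treated or replicate 3 or 4 of vehicle-treated MKα3− cells (adjusted p between 0.0660 and 0.116), and it was also lost with only the groups compared in the fit (adjusted p = 0.319, limma-voom).

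Averaged over both lines, LN332 raised *Phlda1* by 0.57 (SE 0.07, adjusted p = 0.0011 from limma-voom), again 1 of 10 genes against 1.35% of all genes. Both *Dusp4* and *Dusp5* had positive averaged differences that were not called, 0.38 (SE 0.13, adjusted p = 0.119) and 0.33 (SE 0.12, adjusted p = 0.127) in limma-voom. With the replicate block their adjusted p-values were 0.0213 and 0.0475, still under the minimum fold change. The other 7 averaged differences lay between −0.19 (*Etv4*) and 0.13 (*Spry2*). Scaling by library size alone shifted the median of all genes by −0.08 in both LN332 comparisons. It changed the share of higher calls from 25 of 27 to 2 of 3 genes in MKα3+ cells, from 35 of 44 to 24 of 74 in MKα3− cells and from 133 of 196 to 84 of 258 averaged. With this scaling the *Phlda1* calls in MKα3+ cells and averaged over lines were both lost, at 0.45 and 0.49 under the minimum.

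Without a model, the same groups were compared by an exact permutation test of mean CPM, two-sided, over the 70 splits of 8 libraries. Its smallest possible p is 0.0286. This value was reached by *Phlda1* in all 4 pairwise comparisons, by *Dusp4* and *Etv5* in both comparisons of lines and for LN332 in MKα3+ cells, and by *Spred1* between lines in vehicle. Groups did not overlap for 4 of the 10 genes between lines in vehicle, against 32.9% of all genes, and for 3 in LN332, against 26.5%. They did not overlap for 3 of 10 for LN332 in MKα3+ cells, against 9.66%, and for 1 of 10 in MKα3− cells, against 4.95%. In MKα3+ cells the *Etv5* values were separated, at 8.27 to 9.38 CPM with vehicle and 10.1 to 13.9 CPM with LN332, although the model gave an adjusted p of 0.326 (log2 fold change 0.33, limma-voom). With scaling by library size the exact p of *Dusp4* for LN332 in MKα3+ cells moved to 0.0571. That scaling took 2 others from 0.0857 to 0.0286, *Dusp6* between lines in vehicle and *Etv5* for LN332 in MKα3− cells, where it was lower with LN332.

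For some of the 10 genes, libraries of the same replicate number deviated from their group means together. The replicate number accounted for 72.7% of the within-group variance of *Spred1* (log2 CPM), 68.4% of that of *Dusp6*, 66.2% of *Spred2*, 60.0% of *Etv4* and 46.4% of *Dusp4*, but for 7.99% of that of *Phlda1*. The share was 36.5% for *Etv5*, 32.8% for *Dusp5*, 28.8% for *Spry4* and 22.5% for *Spry2*. Part of such a share arises without any effect of the number. *Dusp6* was lowest in replicate 4 in 4 of 4 groups and *Spred1* lowest in replicate 1 in 4 of 4 groups. *Spred2* was lowest in replicate 1 in 3 of 4 groups. What the number stands for (a culture, a day or a preparation) is not given in the sources used here. Adding it to the fit changed no call among the 10 genes. Between lines it brought the limma-voom adjusted p under 0.05 for *Dusp6* in vehicle (−0.39, adjusted p = 0.0064). The same held for *Etv4* in vehicle (0.35, limma-voom adjusted p = 0.0421) and *Spred1* in LN332 (0.27, limma-voom adjusted p = 0.0250). These log2 differences stayed under the minimum fold change.

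**Figure D4:**
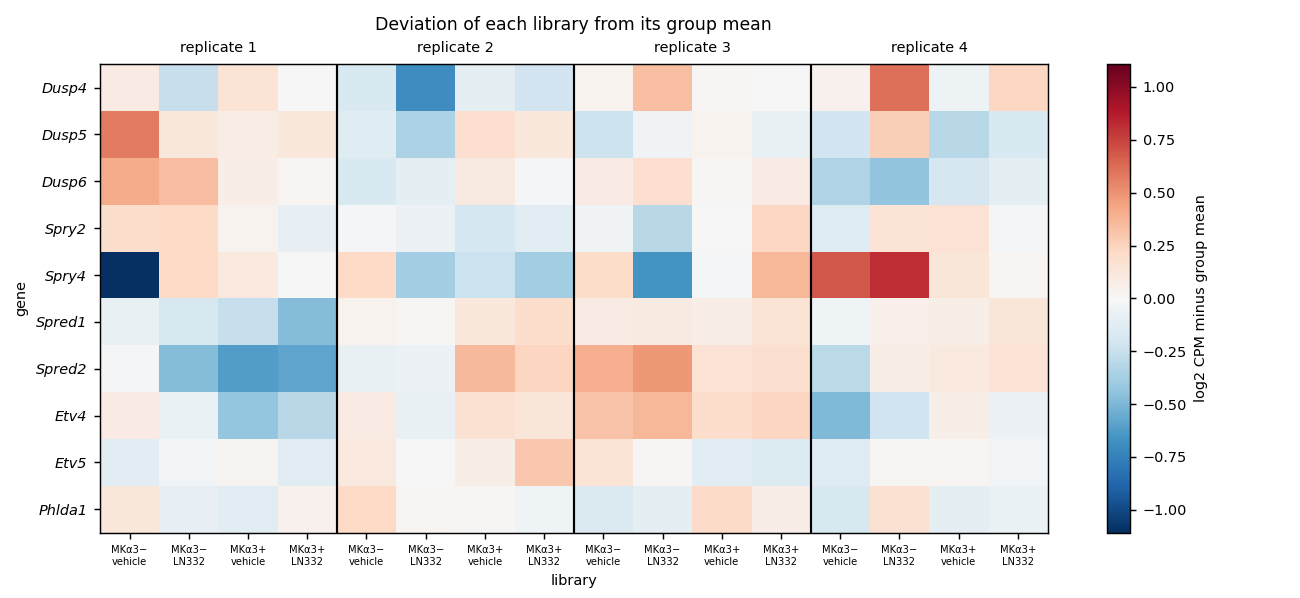
Deviation of each library (x axis, ordered by replicate number and then by group) from the mean of its group in log2 CPM (colour) for the 10 genes (y axis). Replicate 1 is low for *Spred1* in 4 of 4 groups and replicate 4 is low for *Dusp6* in 4 of 4 groups, while *Phlda1* shows small deviations without such a pattern.

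Other genes of the pathway were taken as lists, also chosen with earlier results of these data known. The shares of called genes in them are therefore descriptive and not independent support. Of 25 genes of the core cascade from receptor to ERK and its kinase targets, 1 was higher and 0 lower in vehicle-treated MKα3+ than MKα3− cells, and 2 were higher and 1 lower with LN332. These were 4% and 12% of the list, against 18.5% and 20.6% of all genes called in either direction. The count of 1 in vehicle became 2 without replicate 1 or 4 of MKα3− or replicate 4 of MKα3+ cells, and with library size or without replicate 1 of all groups, and the count of 3 with LN332 became 6 without replicate 1 of LN332-treated MKα3+ cells. *Gab1*, a docking protein downstream of receptor tyrosine kinases, was higher in both treatments (0.58, SE 0.11, and 0.78, SE 0.11). With LN332 *Ksr1*, a scaffold of Raf, MEK and ERK, was higher (0.70, SE 0.18) and *Map2k2*, which encodes MEK2, was lower (−0.61, SE 0.11). *Map2k2* was not called without replicate 4 of LN332-treated MKα3− cells (−0.49). The medians of the list were 0.09 and 0.06.

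Of 13 further feedback genes in the table (*Dusp2* and *Spry3* were not), 6 were higher and 1 lower in MKα3+ cells in vehicle, and again 6 and 1 with LN332. This was 53.8% of the list in both, against 18.5% and 20.6% of all genes called, with medians of 0.40 and 0.45 beside 0.01 for all genes. The list also holds phosphatase genes whose products act on other kinases, such as *Dusp10*, so this share does not measure ERK feedback alone. *Dusp9*, another cytoplasmic ERK phosphatase, was the lower gene in both treatments, from 28.8 ± 3.85 to 7.76 ± 1.50 CPM in vehicle (SD, n = 4, log2 fold change −1.90, SE 0.17) and from 26.0 ± 2.29 to 7.53 ± 1.76 CPM with LN332 (−1.82, SE 0.17). *Dusp14* was higher by 0.77 (SE 0.18) and 0.97 (SE 0.18). In vehicle *Dusp10*, which encodes a phosphatase of p38 and JNK, was higher by 0.63 (SE 0.18) and *Errfi1*, an inhibitor of EGFR, by 0.61 (SE 0.12). With LN332 *Spry1* was higher by 1.29 (SE 0.22) and *Il17rd*, an inhibitor of FGF signalling, by 0.80 (SE 0.18). *Dusp10*, *Errfi1*, *Spry1* and *Il17rd* were each called in both treatments, and each is given where it was among the largest changes. With the replicate block *Dusp10* and *Errfi1* differed by 0.69 and 0.69 in LN332, and *Spry1* and *Il17rd* by 0.64 and 0.62 in vehicle. The *Spry1* call in vehicle was kept in 3 of 16 fits that left out a library. In vehicle *Dusp10* was lost without replicate 1 of MKα3+ or replicate 3 of MKα3− cells (adjusted p = 0.0513 and 0.0546 from limma-voom). The count in vehicle was 5 rather than 7 with library size or DESeq2 size factors as the scaling, and 4 without replicate 3 of vehicle-treated MKα3− cells. For LN332 in MKα3+ cells 0 of the 53 genes of the 3 lists were called in limma-voom and edgeR, 10 had an unadjusted p under 0.05 in limma-voom, and DESeq2 called 3. With the replicate block 2 feedback and 3 output genes were called, beside 218 of all genes. With sample quality weights it was 3 and 3, beside 454 of all genes, so this count depends on the setting. In MKα3− cells 1 was called: LN332 raised *Dusp8* there (0.71, SE 0.14, adjusted p = 0.0359 from limma-voom), a call kept in 4 of 16 fits that left out a library. Averaged over lines it raised *Dusp8* (0.69, SE 0.10) and *Dusp14* (0.61, SE 0.13).

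Of 15 further output genes in the table (*Etv1* was not), 2 were higher and 2 lower in vehicle, and 2 higher and 1 lower with LN332. These were 26.7% and 20% of the list, against 18.5% and 20.6% of all genes called, with medians of 0.25 and 0.26. The count of 4 in vehicle fell to 1 without replicate 3 of MKα3− cells and to 2 without replicate 2 or 3 of MKα3+ cells or in edgeR. The count of 3 with LN332 became 5 with the replicate block and 6 with replicate 1 of all groups left out. In vehicle *Fos*, an immediate early transcription factor gene, was higher by 1.30 (SE 0.41), but its groups overlapped (23.7 to 98.4 CPM in the MKα3− line and 69.5 to 153 CPM in MKα3+ cells). *Fos* was not called in edgeR (adjusted p = 0.0678) or DESeq2 (adjusted p = 0.0782), or without replicate 1 of MKα3+ or replicate 2, 3 or 4 of MKα3− cells in vehicle. *Hbegf* and *Ereg* encode EGFR ligands. *Hbegf* was higher in vehicle (0.57, SE 0.20) and with LN332 (0.66, SE 0.20), calls kept in 7 and 12 of 16 fits that left out a library. *Ereg* was lower in vehicle (−0.59, SE 0.19), kept in 11 of 16. *Elk1*, an ETS factor phosphorylated by ERK, was lower in both (−0.68, SE 0.13, and −0.84, SE 0.13), and *Epha4* was higher with LN332 (0.59, SE 0.17), except without replicate 4 of LN332-treated MKα3− cells. *Myc* rose with LN332 averaged over lines (0.52, SE 0.10, adjusted p = 0.0094 from limma-voom), and was under the minimum with library size (0.44) and in 5 of 16 fits that left out a library.

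**Figure D5:**
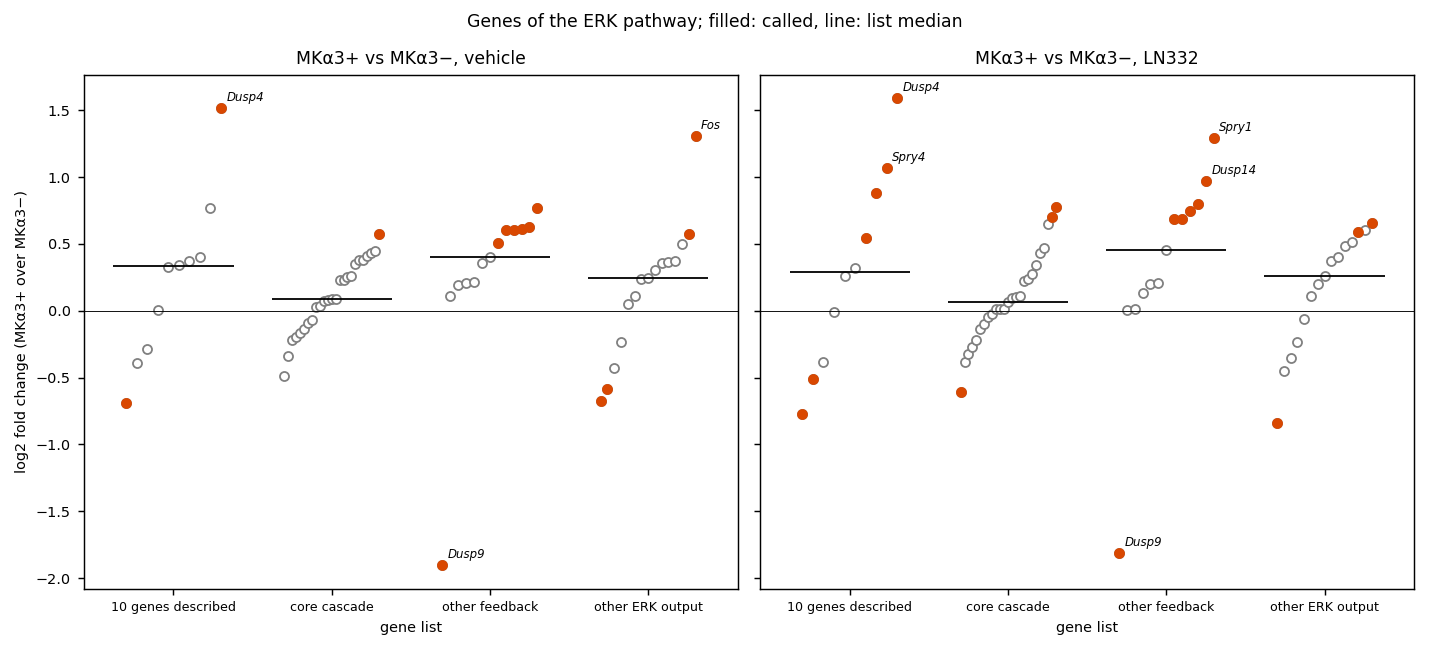
Log2 fold change of MKα3+ over MKα3− cells (y axis) in vehicle (left) and LN332 (right) for the 10 genes, 25 genes of the core cascade, 13 other feedback genes and 15 other output genes (x axis), each point a gene and each line the median of its list. Filled points were called; *Dusp4* at 1.52 and *Dusp9* at −1.90 are the extremes in vehicle.

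The genes whose profile over the 16 libraries was most like that of *Dusp4*, by the root mean square difference of log2 CPM after centring each gene, were *Ccbe1* (0.219) and *Samd4* (0.231). Those most like *Phlda1* were *Cdc42ep5* (0.200) and *Upk3bl* (0.205). In vehicle *Ccbe1* and *Samd4* differed between lines by 1.35 and 1.38, and *Cdc42ep5* and *Upk3bl* by −0.60 and −0.65, on the log2 scale. For LN332 in MKα3+ cells the differences of *Ccbe1* and *Samd4* were 0.34 and 0.17, beside 0.42 for *Dusp4*. Those of *Cdc42ep5* and *Upk3bl* were 0.19 and 0.32, beside 0.53 for *Phlda1*.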

How the data were processed

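Per the labels and the methods, poly(A) RNA libraries were mapped by the authors to mm10 with Rsubread and assigned to genes by featureCounts using the Entrez annotation it ships with. The deposited values are raw counts, not normalized, covering 14474 genes and 16 libraries; the submitters' processing notes also name bcl2fastq 2.20, edgeR and limma. The strand setting is not given in the sources used here. Of the genes, 284 had no symbol. The filter of the methods (over 0.5 CPM in at least 3 libraries) removed 0 genes. TMM factors came from edgeR 4.0.16, and voom weights, contrasts and adjusted p-values (Benjamini-Hochberg over all genes) from limma 3.58.1 in R 4.3.3, with 16 libraries in a single fit. The procedure was tested on simulated counts without any effect shared by replicate number. The planted changes were larger than the LN332 differences called for the genes named here, so that test does not speak to them. The 10 genes, the pathway lists and the markers were chosen with earlier results of these data known. Genes of the lists were named when called, at most 4 per list and contrast by size of change, and for likeness the 2 nearest genes of each of the 10 genes called in vehicle. Exon lengths and overlaps are from GENCODE on GRCm38.p6, promoter windows from RefSeq. The lengths pool all GENCODE exons of a gene, whereas the counts used the Entrez annotation. Levels per kilobase, their order and the ratio of *Dusp6* to *Dusp4* therefore depend on the lengths chosen. As alternatives, the counts were refitted with DESeq2 1.42.0 and with the quasi-likelihood test of edgeR, with other scalings and filters, with sample quality weights, with a replicate block, on only the groups compared, without a minimum fold change and with each library left out. Leaving out replicate 1 of all groups was chosen after seeing the data.

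Replicate numbers were taken from the labels of the samples. Libraries with the same number in different groups correlated in their deviations from the group means (mean r = 0.387, 22 of 24 pairs over 0.1, against a mean of −0.118 for different numbers). The lowest same-number r was 0.251 between lines in vehicle, −0.0768 between lines in LN332, 0.323 for LN332 in MKα3+ and 0.260 for LN332 in MKα3− cells.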

Additional observations from a re-analysis of the deposited data

Results flagged for a closer look

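A test for a library far from the others in its group of 4 marked 6 of 48 groups (40 of single genes and 8 of library measures), where chance gives about 1 in 20 or 2.4. The 6 marked values came from 4 libraries, each replicate 1 of its group. *Dusp5* was at 52.8 CPM in replicate 1 of vehicle-treated MKα3− cells, with the other 3 between 30.1 and 32.2 CPM. *Spred1* was at 27.4 CPM in replicate 1 of vehicle-treated MKα3+ cells, with the others between 34.2 and 35.5 CPM, and at 21.7 CPM in replicate 1 of LN332-treated MKα3+ cells, with the others between 33.3 and 34.6 CPM. *Spred2* was at 22.1 CPM in replicate 1 of LN332-treated MKα3+ cells, with the others between 37.1 and 39.0 CPM. *Etv5* was at 5.98 CPM in replicate 1 of LN332-treated MKα3− cells, with the others between 6.14 and 6.17 CPM. That gap is small beside the level, and it was marked because the other values lay very close together. The group was at 6.11 ± 0.0927 CPM (SD, n = 4), from 126 to 174 counts per library. The ribosomal RNA precursor *Rn45s* took 1.42% of the counts in replicate 1 of LN332-treated MKα3− cells, and between 0.503% and 0.654% in the other 3. The part of this share in the gene values of that library was not tested.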

How the results depend on the processing

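Between lines, *Dusp4* and *Phlda1* kept their calls under every alternative run, as did *Etv5* with LN332. Without a minimum fold change, 4115 genes and 4 of the 10 were called in vehicle and 4654 genes with LN332. The LN332 counts varied with the setting. In MKα3+ cells (27 genes) they were 4 in edgeR, 121 in DESeq2, 3 with library size, 218 with the replicate block, 454 with quality weights, 106 with only the groups compared and 87 without replicate 1, with 0 of the 10 called in edgeR, with library size, with quality weights and without replicate 1. In MKα3− cells (44 genes) they were 165 in DESeq2, 74 with library size, 259 with the block, 123 with quality weights, 1 with only the groups compared (0 of the 10) and 163 without replicate 1. Averaged over lines (196 genes) they were 363 with the block, 464 with quality weights, 637 without a minimum fold change and 347 without replicate 1, and 0 of the 10 with library size (*Phlda1* 0.49). *Dusp6* in LN332 was lost with quality weights (−0.49) and *Spry4* with library size (adjusted p = 0.0506, limma-voom) and only the groups compared (0.0729). *Spry4* was not in the fit with at least 10 counts in every library. The cause was not tested.

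Leaving out 1 library gave 2345 to 2754 genes and 2 to 3 of the 10 in vehicle, 2590 to 3338 and 3 to 6 with LN332, 0 to 47 and 0 to 1 for LN332 in MKα3+ cells, 1 to 150 and 0 to 1 in MKα3− cells, and 114 to 321 and 1 to 2 averaged. In MKα3+ cells the count was 0 without replicate 3 or 4 of LN332-treated or 2 or 4 of vehicle-treated MKα3+ cells. Without replicate 1 of LN332-treated MKα3− cells it was 150 in MKα3− cells and 321 averaged. The averaged count was 114 without replicate 3 of vehicle-treated MKα3− and 130 without replicate 4 of LN332-treated MKα3+ cells. *Dusp6* was called in vehicle without replicate 4 of MKα3− cells (−0.50), and *Dusp4* averaged without replicate 2 of LN332-treated MKα3− cells (0.50).

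Reversals of sign touched values near 0 that were not called. *Spry2* between lines in vehicle was −0.0065 (DESeq2), −0.0042 (size factors), −0.0095 (library size) and −1.8e-05 (only the groups compared), and with LN332 0.094 (quality weights) and 0.10 (without replicate 1). The *Dusp4* interaction was −0.023 in edgeR and −0.020 in DESeq2. With library size, LN332 differences were −0.055 for *Spry4* in MKα3+ cells, and −0.053 for *Dusp6* and −0.070 for *Spred1* in MKα3− cells. *Spred2* in MKα3− cells was 0.055 without replicate 1. In CPM scaled by library size the differences were −3.15 (*Dusp6*) and −1.26 (*Spred1*) for LN332 in MKα3− cells, −0.0248 (*Spry4*) for LN332 in MKα3+ cells and −0.161 (*Spry2*) between lines in vehicle.

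With 1 library left out, ranges that crossed 0 were −0.051 to 0.069 (*Spry2* in vehicle), −0.13 to 0.069 (*Spry2* in LN332), −0.24 to 0.013 (*Etv4*), −0.20 to 0.051 (*Spred1*), −0.40 to 0.0013 (*Spred2*) and −0.10 to 0.15 (*Spry4*) for LN332 in MKα3+ cells, −0.10 to 0.17 (*Dusp6*), −0.029 to 0.057 (*Spred1*) and −0.26 to 0.057 (*Spred2*) in MKα3− cells, −0.098 to 0.034 (*Dusp6*) averaged, and −0.17 to 0.26 (*Dusp4*) and −0.26 to 0.00052 (*Dusp6*) for the interaction. The replicate block gave 3056, 3393 and 0 called genes between lines in vehicle, between lines in LN332 and for the interaction, and changed no call among the 10 genes. Depth limits *Spry4*, at 7 to 32 counts per library.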
